A study of Mus musculus with 6 samples.

Results

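The genes examined here were 44 cell cycle and proliferation genes, picked by name from the 29097 genes measured in neutrophils sorted from mouse peripheral blood (PB). They cover the licensing and copying of DNA, the cyclins and kinases that drive a cell into and through mitosis, and the machinery of the mitotic spindle. All 44 names were found in the table. Each of 6 libraries was made from the pooled CD45+CD11b+Ly6G+ neutrophils of 5 male C57BL/6 mice of 8 weeks. In 3 libraries the mice had carried silk ligatures around their molars for 14 d (ligature-induced periodontitis, LIP, an inflammation of the tissue around the teeth), and in the other 3 they stayed unligated for the same time (Ctrl). No genotype or drug differed between the groups. Because each library was a pool, the spread between libraries is one between pools and not between single mice.

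Neutrophils divide in the bone marrow as promyelocytes and myelocytes, leave the cell cycle at the metamyelocyte stage and circulate as cells that no longer divide. In dividing cells the MCM helicase is loaded on origins before S phase, E2F factors switch on the genes of DNA synthesis, and the MuvB complex with B-MYB and FOXM1 switches on the mitotic genes in G2. When a cell stops dividing, the DREAM complex, which shares the MuvB core, represses both sets. Transcripts of these genes in blood neutrophils are often read as a trace of division in the marrow.

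The promoter letters that this wiring reads were looked up first, because the genes of S phase and those of mitosis are known to be switched on through different sites. RefSeq promoters (GRCm38.p6) were at hand for 35 of the 44 genes, and the 250 bases before each annotated start were searched on both strands. The cell cycle homology region (CHR, TTTGAA or TTCGAA), through which MuvB complexes bind, was present in 12 of the 35 (34.3%) against 19.6% of 27025 genes. It was present in 9 of 19 mitotic genes and in 2 of 14 replication genes. The CCAAT box (CCAAT), the site of NF-Y, was present in 26 of the 35 (74.3%) against 37.5% of all genes, with 17 of 19 among the mitotic genes and 8 of 14 among the replication genes. An E2F site (TTTCCCGC, TTTCGCGC, TTTGCCGC or TTTGGCGC) was present in 5 of the 35 (14.3%) against 2.16% of all genes, and those were *Cdc6*, *Cdk1*, *Mcm5*, *Mcm6* and *Mcm7*. E2F matches can overlap each other on the opposite strands of TTTGGCGCGAAA. These are matches of letters, not measured binding. The RefSeq start does not always match the gene start in the GENCODE annotation. It lies 350 bases downstream for *Cdc6* and 539 for the *Mcm7* window with the E2F site, so both sites are inside the gene by GENCODE. The largest offset was 2394 bases downstream, for *Cdca8*.

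The windows of 4 genes are shown, each the 120 bases before the RefSeq start, on the strand of the gene from 5′ to 3′, with every match in capitals (a CHR on the opposite strand reads TTCAAA, and a CCAAT box on that strand would stand in the printed line as ATTGG). They were chosen after the values were known: *Ube2c* (chr2:164769809-164769928, plus strand) and *Ccnb1* (chr13:100786487-100786606, minus strand) as mitotic genes that were far lower in LIP libraries, *Mcm6* (chr1:128359706-128359825, minus strand) as a replication gene that fell, and *Hmgb2* (chr8:57511723-57511842, plus strand) as the gene that rose. Against the gene start in the GENCODE annotation, the RefSeq start lies 41 bases upstream for *Mcm6* and 64 upstream for *Hmgb2*, but 31 bases downstream for *Ube2c* and 84 downstream for *Ccnb1*. The last 31 and 84 bases of those windows, with the CHR of *Ube2c* and a CCAAT box of *Ccnb1*, are thus inside the gene by GENCODE.
Ube2c: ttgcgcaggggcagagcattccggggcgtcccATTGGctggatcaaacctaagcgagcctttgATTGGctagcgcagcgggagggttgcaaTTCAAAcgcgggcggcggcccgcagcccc
Ccnb1: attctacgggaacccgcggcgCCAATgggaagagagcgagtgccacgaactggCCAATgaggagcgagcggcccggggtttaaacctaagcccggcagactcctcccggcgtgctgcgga
Mcm6: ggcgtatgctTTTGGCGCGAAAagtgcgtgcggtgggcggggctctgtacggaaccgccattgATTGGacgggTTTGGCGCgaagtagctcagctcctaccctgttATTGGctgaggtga
Hmgb2: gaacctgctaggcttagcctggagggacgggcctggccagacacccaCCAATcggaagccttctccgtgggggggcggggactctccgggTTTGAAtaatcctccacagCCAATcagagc
*Ube2c* and *Hmgb2* both hold a CHR and CCAAT boxes close to the start, and moved in opposite directions in the main test below. With reads scaled on mature neutrophil genes instead, both were lower (log2 fold change, LIP against Ctrl, -4.28 and -0.62). A part of these letters in the levels was not tested. In the *Ccnb1* window the CCAAT boxes stand without these CHR letters, and in *Mcm6* the CCAAT boxes alternate with E2F sites.

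The libraries held between 52186555 and 57262379 counted reads. Smart-seq2, which copies full-length mRNA and amplifies it by PCR, attaches no molecular identifiers, so reads are not independent molecules and any counting limit covers counting error only. Neutrophil RNA was present in both groups, at a lower level in Ctrl libraries: *S100a9*, a calcium-binding protein that fills the neutrophil cytosol, stood at 3599 ± 431.5 CPM (read counts scaled to library size after TMM normalization; mean ± SD, n = 3) in Ctrl and 14710 ± 435.5 in LIP libraries. RNA of other cells was also present and differed between the groups. Haemoglobin transcripts took 14.6 to 15.0% of Ctrl reads and 1.55 to 1.61% of LIP reads, and the summed FPKM of 13 B cell markers ran from 3829 to 4107 in Ctrl and from 551.9 to 616.8 in LIP libraries. In bulk libraries, fewer cells of a type and less RNA per cell cannot be told apart.

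Of the 44 genes, 19 had a mean FPKM (fragments scaled to gene length and library total) of at least 1 over the 6 libraries and entered the main test, edgeR's quasi-likelihood test over 10440 genes with the Benjamini-Hochberg adjustment. At an adjusted p under 0.05, 13 were lower in LIP libraries, 1 was higher and 5 were not called. The background was high: 27.2% of all genes tested were lower and 26.5% were higher (2835 and 2766 genes). The median log2 fold change (LIP against Ctrl) was -1.03 over the 19 genes and -0.095 over all genes tested. *Mcm2*, *Rrm2*, *Cdc20* and *Nusap1* passed the FPKM filter with a LIP mean below 1, that is through the Ctrl libraries. All 44 genes were also tested under edgeR's own filter (filterByExpr, 16402 genes), where 14 were lower and 1 was higher, against 16.4% and 16.8% of all genes. That filter too admits a gene through 1 group alone, so it does not remove this selection. Of the genes below the FPKM filter, it called 2 lower, *Ccnb1* (no read in LIP libraries) and *Ccne1*.

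The size of the shift depends on what is taken as constant. With reads scaled to library totals the median of all genes moved to -0.416, all-gene calls split into 1919 higher and 4146 lower, and the cell cycle genes still split into 1 and 13. With reads scaled on 21 mature neutrophil genes, which rose in LIP libraries, the median of all genes moved to -1.905, the all-gene split was 63 higher and 9240 lower, and the cell cycle genes split into 0 and 18. Relative to the median of all genes in the main test, the 19 genes ran from -2.78 (*Cdc20*, not called) to 1.29 (*Hmgb2*).

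Counting reads instead of genes, the 44 genes together took 9.63 ± 0.374 of every 10000 reads in Ctrl and 8.30 ± 0.283 in LIP libraries (n = 3 each). *Hmgb2*, *Tuba1b* and *Stmn1*, which non-dividing cells also express, took 4.88 ± 0.307 of that sum in Ctrl and 6.396 ± 0.269 in LIP libraries. The remaining 41 genes took 5.03, 4.73 and 4.51 of every 10000 reads in the Ctrl libraries and 1.99, 1.901 and 1.82 in the LIP libraries. The LIP libraries thus lay at 0.4002 of the Ctrl mean, and the groups did not overlap. As a share of the reads outside haemoglobin genes, the same 41 genes lay at 0.346 of the Ctrl mean.

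**Figure D1:**
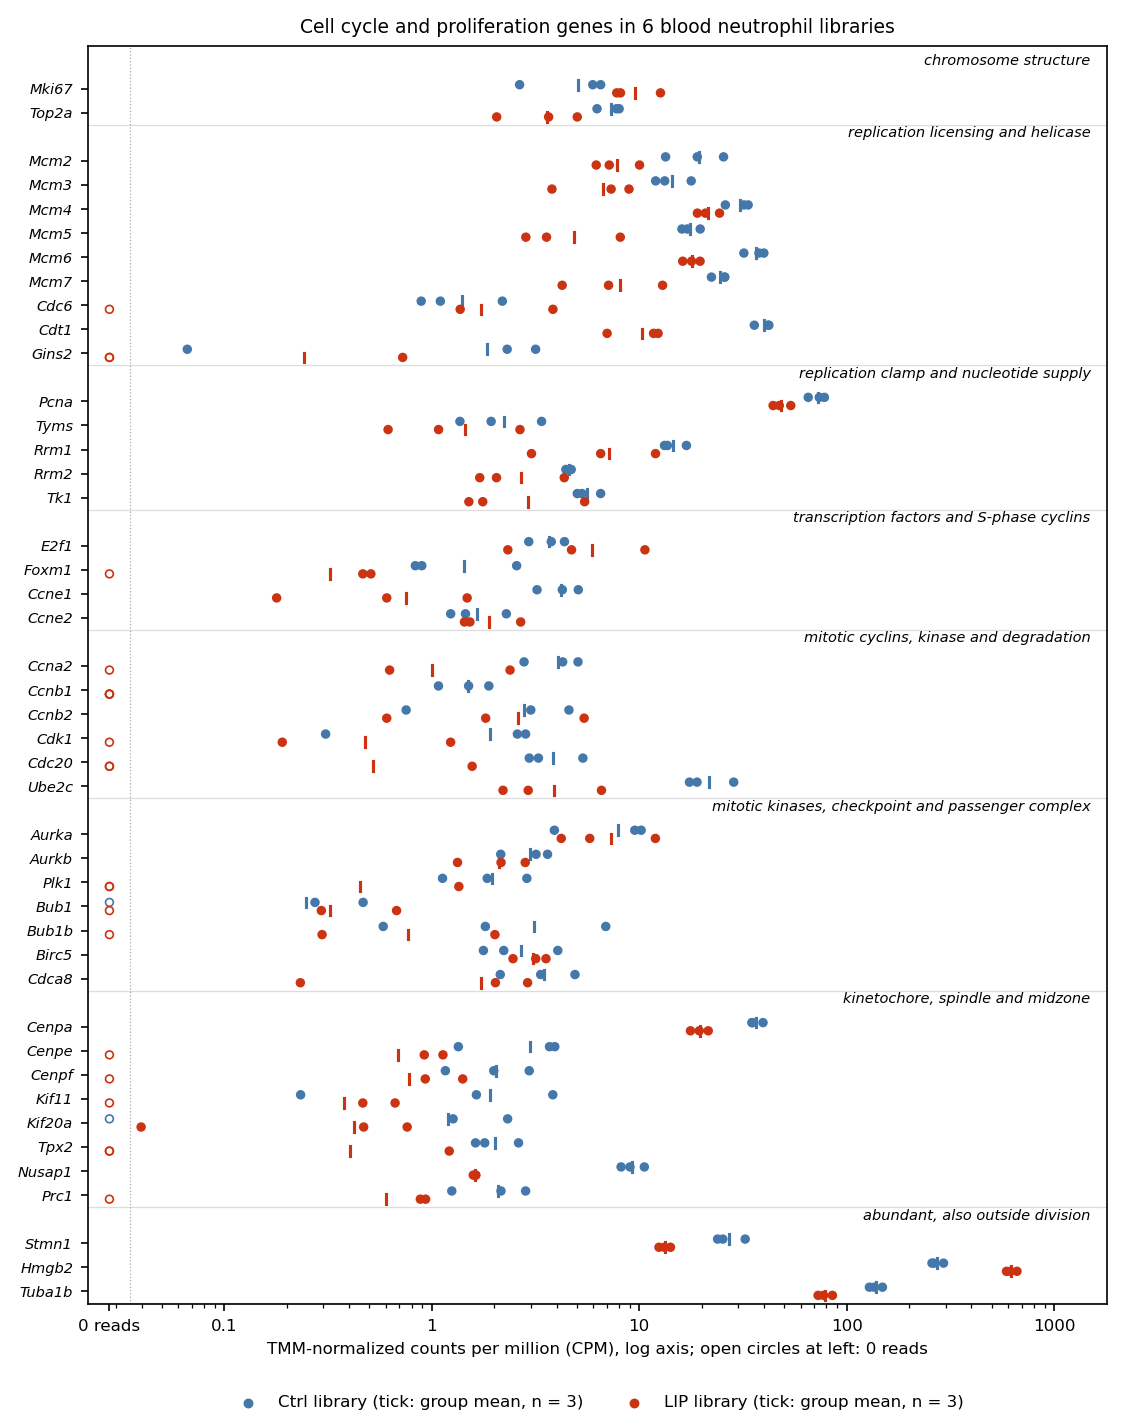
Level of each of the 44 genes in the 6 libraries, as TMM-normalized CPM on a log axis, grouped by role (blue, Ctrl; red, LIP; ticks, group means, n = 3; open circles at the left edge, libraries without a read). In 24 genes all LIP libraries lay below all Ctrl libraries, in 2 (*Hmgb2* and *Mki67*) all lay above, and in 18 the groups overlapped. In FPKM the groups of *Mki67* overlapped too.

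In levels, 37 of the 44 genes had a lower mean in LIP libraries and 7 a higher mean. In TMM-normalized CPM the groups did not overlap in 24 genes that were lower and in 2 that were higher. Of all genes under the wider filter, 29.1% were lower and 22.7% were higher without overlap, and of the 10440 genes of the main test, 33.1% and 30.3%.

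All tested licensing and helicase genes fell. MCM2 to MCM7 form the ring-shaped helicase that unwinds DNA at the fork, CDT1 and CDC6 load it, and GINS2 belongs to the complex that activates it. Of these 9 genes, 7 were tested and all 7 were lower (median log2 fold change -1.31), against 27.2% of all genes tested. Of the 7, *Mcm2* entered the test through the Ctrl libraries. Under filterByExpr 6 of the 9 were lower, against 16.4% of all genes. The group took 2.08 ± 0.155 of every 10000 reads in Ctrl and 0.709 ± 0.0842 in LIP libraries.

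*Cdt1*, the loading factor, had 42.2, 41.9 and 35.9 CPM in the Ctrl libraries and 11.7, 12.4 and 7.01 CPM in the LIP libraries. All LIP libraries were below all Ctrl libraries, at a mean 3.86-fold lower. Its log2 fold change was -1.95 ± 0.24 (SE), with an adjusted p of 7.38e-05. *Mcm5* had 16.1, 17.1 and 19.7 CPM in Ctrl and 2.85, 8.12 and 3.58 CPM in LIP libraries. The second LIP library was the highest of its group, still below every Ctrl library, and the log2 fold change was -1.86 ± 0.39 (adjusted p = 0.00238).

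*Mcm7* had 25.8, 25.9 and 22.3 CPM in Ctrl and 7.13, 12.98 and 4.26 CPM in LIP libraries, a log2 fold change of -1.60 ± 0.36 (adjusted p = 0.00359). Part of its exons overlaps *Cops6* and *Ap4m1* on the opposite strand, and the use of strand in counting was not given in the sources used here, so reads in the overlap are uncertain. *Mcm2* had 25.5, 13.4 and 19.1 CPM in Ctrl and 10.1, 6.22 and 7.18 CPM in LIP libraries (log2 fold change -1.31 ± 0.31, adjusted p = 0.00459). Under filterByExpr the adjusted p of *Mcm2* was 0.0124. *Mcm6* had 39.9, 32.0 and 37.8 CPM in Ctrl and 17.9, 19.7 and 16.2 CPM in LIP libraries (-1.03 ± 0.18, adjusted p = 0.000846). Both kept the groups apart in every library.

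The remaining helicase subunits fell by less or less firmly. *Mcm3* had 12.0, 13.3 and 17.8 CPM in Ctrl and 3.80, 7.33 and 8.94 CPM in LIP libraries (log2 fold change -1.10 ± 0.35, adjusted p = 0.0209). Without the third Ctrl library its adjusted p was 0.0903, and with no filter on low genes it was 0.0864. *Mcm4* had 32.0, 26.1 and 33.6 CPM in Ctrl and 20.9, 19.1 and 24.4 CPM in LIP libraries, the smallest change of the 7 (-0.51 ± 0.19, adjusted p = 0.0443). Its call was lost without the first or the third Ctrl library or the first or the second LIP library (adjusted p from 0.0861 to 0.146), under filterByExpr (0.0761), with no filter (0.116) and with median-of-ratios factors (0.0593). *Cdc6* and *Gins2* had a mean FPKM below 1 and overlapping groups (adjusted p = 0.873 and 0.301 under filterByExpr). Most exon bases of *Gins2* (2758 of 4097) are shared with *Gse1* on the opposite strand.

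Among the genes of the replication clamp and of nucleotide supply, edgeR called the abundant *Pcna* lower and none of the others. PCNA encircles DNA and holds the polymerase at the fork, and the ribonucleotide reductase subunits RRM1 and RRM2, TYMS and TK1 make the deoxynucleotides. *Pcna* had 73.9, 78.2 and 65.3 CPM in Ctrl and 47.4, 44.3 and 53.8 CPM in LIP libraries. It was 1.49-fold lower, without overlap, and its log2 fold change was -0.58 ± 0.14 (adjusted p = 0.00497).

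*Rrm2* had 4.600, 4.71 and 4.44 CPM in Ctrl and 4.36, 1.71 and 2.06 CPM in LIP libraries. The first LIP library came close to the Ctrl level, and the log2 fold change of -0.76 ± 0.43 did not pass (adjusted p = 0.158). Without that library it was -1.28 (adjusted p = 0.0190), and limma gave an adjusted p of 0.0298 on log2(FPKM + 1) and 0.0431 on log2(FPKM + 0.1), against 0.215 with DESeq2. *Rrm1*, *Tyms* and *Tk1* lay below a mean FPKM of 1, with log2 fold changes of -0.99, -0.57 and -0.91 under filterByExpr (adjusted p = 0.130, 0.594 and 0.245).

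The upstream regulators did not move together. E2F1 is the activating factor of S-phase genes, FOXM1 that of G2 genes, and cyclins E1 and E2 drive the G1/S transition with CDK2. *E2f1* had 2.94, 3.77 and 4.37 CPM in Ctrl and 10.7, 4.73 and 2.33 CPM in LIP libraries. The LIP libraries spanned the whole Ctrl range and beyond on both sides, and the difference did not pass (log2 fold change 0.68 ± 0.51, adjusted p = 0.283). Without the first LIP library it was -0.07 (adjusted p = 0.911). *Ccne1* had 3.22, 5.09 and 4.27 CPM in Ctrl and 0.179, 0.608 and 1.48 CPM in LIP libraries, and was lower under filterByExpr (log2 fold change -2.43 ± 0.75, adjusted p = 0.0382). *Ccne2* overlapped, at 1.66 ± 0.557 CPM in Ctrl and 1.89 ± 0.695 in LIP libraries, and *Foxm1* was at or below 0.510 CPM in every LIP library and at or above 0.835 in every Ctrl library (adjusted p = 0.280 under filterByExpr).

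**Figure D2:**
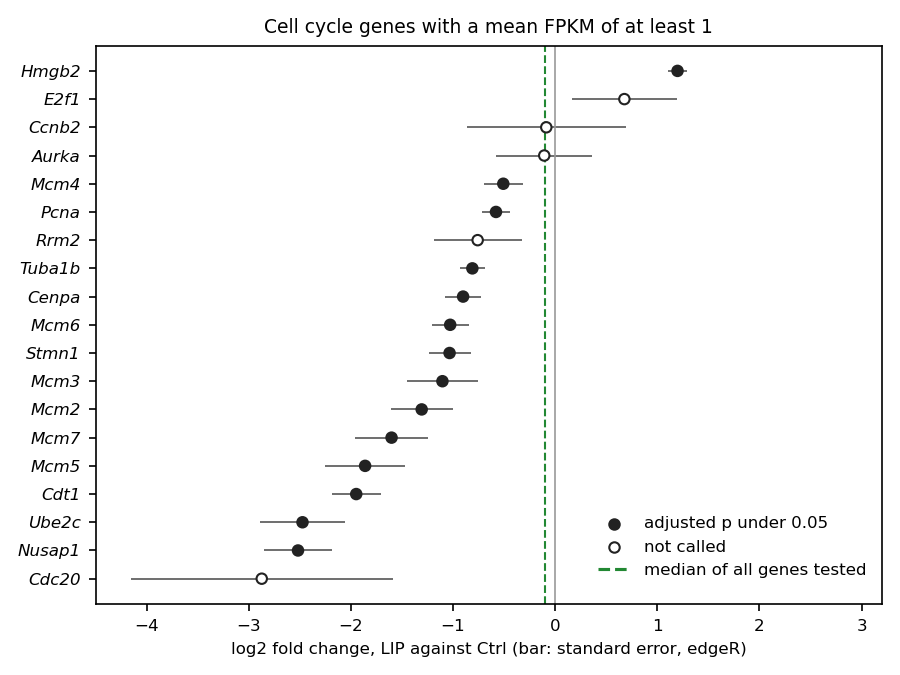
Log2 fold change of the 19 tested genes, LIP against Ctrl, with the standard error from edgeR (n = 3 libraries per group). Filled points have an adjusted p under 0.05, and the dashed line marks the median of all 10440 genes tested (-0.095). *Nusap1* and *Ube2c* lie lowest among the called genes and *Hmgb2* alone lies to the right of 0 among them; with reads scaled on mature neutrophil genes *Hmgb2* also lay below 0 (-0.62).

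Of the 8 role groups, the genes of mitotic entry and exit had the lowest LIP share relative to Ctrl, at 0.191. Cyclins A2, B1 and B2 activate CDK1, while CDC20 and UBE2C serve the anaphase-promoting complex, which destroys the cyclins. The 6 genes took 0.399 ± 0.118 of every 10000 reads in Ctrl and 0.0763 ± 0.0137 in LIP libraries. Most of their Ctrl reads came from *Ube2c* (1145, 1712 and 1021 reads), so the share of the group leans on that gene. *Ube2c*, the conjugating enzyme of that complex, had 19.0, 28.6 and 17.5 CPM in Ctrl and 2.21, 2.92 and 6.59 CPM in LIP libraries. It was 5.56-fold lower, with a gap between the groups, and its log2 fold change was -2.47 ± 0.42 (adjusted p = 0.000606).

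*Ccnb1* (chr13:100778650-100786570 on GRCm38) had 65, 113 and 88 reads in the Ctrl libraries and 0 reads in each LIP library. At a floor of 3 reads per LIP library it was 24.6-fold lower, a limit that covers counting error only. Other rare genes varied more than that between LIP libraries, as *Plk1* did with 0, 69 and 0 reads. It lay below the FPKM filter, and filterByExpr gave an adjusted p of 0.00303. *Ccnb2*, its close relative, had 3.01, 4.59 and 0.754 CPM in Ctrl and 5.43, 0.608 and 1.82 CPM in LIP libraries, without a difference beyond its spread (log2 fold change -0.09 ± 0.78, adjusted p = 0.931).

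*Cdk1*, the mitotic kinase itself, had 2.59, 2.84 and 0.308 CPM in Ctrl and 0, 1.24 and 0.191 CPM in LIP libraries. The third Ctrl library fell among the LIP libraries, and the difference did not pass (adjusted p = 0.368 under filterByExpr). *Cdc20* had 2.96, 5.36 and 3.27 CPM in Ctrl and 0, 1.57 and 0 CPM in LIP libraries. No library overlapped, but the model gave a log2 fold change of -2.87 ± 1.28 (adjusted p = 0.0817). Without the second LIP library both remaining LIP libraries were at 0 and its adjusted p was 0.000113, and limma on log2(FPKM + 1) gave an adjusted p of 0.00149, while filterByExpr gave 0.228, no filter 0.314 and DESeq2 0.336. *Ccna2* was lower in every LIP library than in any Ctrl library, at 1.01 ± 1.24 against 4.05 ± 1.16 CPM (adjusted p = 0.270 under filterByExpr). Exons of *Cdc20*, *Ccna2*, *Ccne2*, *Kif20a* and *Tk1* overlap genes of the opposite strand with a mean FPKM above 1 (*Elovl1*, *Exosc9*, *Ints8*, *Cdc23* and *Afmid*), where the limit given for *Mcm7* holds too.

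Of the mitotic kinases, the checkpoint and the passenger complex, none of the 7 genes was called by edgeR under either filter. AURKA builds the spindle poles, AURKB with survivin (*Birc5*) and borealin (*Cdca8*) corrects attachments, and BUB1 and BUBR1 (*Bub1b*) hold the checkpoint. *Aurka*, the only gene of this group above a mean FPKM of 1, had 10.2, 9.53 and 3.91 CPM in Ctrl and 12.0, 4.22 and 5.78 CPM in LIP libraries. The groups overlapped over nearly their whole range (log2 fold change -0.11 ± 0.47, adjusted p = 0.859). *Birc5* had 2.69 ± 1.21 CPM in Ctrl and 3.07 ± 0.554 in LIP libraries. *Aurkb*, *Plk1*, *Bub1b* and *Cdca8* had lower LIP means with overlapping groups (adjusted p from 0.370 to 0.525 under filterByExpr). *Bub1* was the least abundant of the 44, with a mean FPKM of 0.0588.

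Of the 8 genes of the kinetochore, spindle and midzone, 2 were tested and both were lower, against 27.2% of all genes tested. *Nusap1* entered the test through the Ctrl libraries, with a LIP mean FPKM of 0.329. CENPA is the histone that marks the centromere, and NUSAP1 bundles spindle microtubules. *Nusap1* had 9.04, 10.6 and 8.19 CPM in Ctrl and 1.63, 1.59 and 1.63 CPM in LIP libraries. It was 5.73-fold lower, and the log2 fold change was -2.52 ± 0.33 (adjusted p = 0.000106, and 0.000476 under filterByExpr). *Cenpa* had 39.6, 35.2 and 35.0 CPM in Ctrl and 17.7, 19.5 and 21.5 CPM in LIP libraries (-0.90 ± 0.17, adjusted p = 0.00144).

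The 6 motor, kinetochore and midzone genes of the same group with fewer reads (*Cenpe*, *Cenpf*, *Kif11*, *Kif20a*, *Tpx2* and *Prc1*) had lower LIP means, and none was called under filterByExpr (adjusted p from 0.245 to 0.556). *Tpx2*, which targets AURKA to the spindle, had 2.62, 1.80 and 1.63 CPM in Ctrl and 0, 1.22 and 0 CPM in LIP libraries. *Kif11*, the kinesin that pushes the poles apart, ran from 0.234 to 3.84 CPM in Ctrl and from 0 to 0.667 in LIP libraries.

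*Mki67* and *Top2a*, the markers most used for dividing cells, pointed in opposite directions. Ki-67 coats mitotic chromosomes, and topoisomerase IIα untangles them. *Mki67* had 5.98, 2.66 and 6.53 CPM in Ctrl and 12.7, 7.80 and 8.13 CPM in LIP libraries. In CPM all LIP libraries were above all Ctrl libraries, but the difference did not pass (log2 fold change 0.96 ± 0.40, adjusted p = 0.106 under filterByExpr). In FPKM, which carries no TMM factor, the groups overlapped, with the second LIP library at 0.647 and the third Ctrl library at 0.667. *Top2a* had 7.77, 8.01 and 6.27 CPM in Ctrl and 5.04, 2.06 and 3.66 CPM in LIP libraries, all LIP below all Ctrl (-0.998 ± 0.390, adjusted p = 0.0856). Per length, both were low, at a mean FPKM of 0.653 and 0.582.

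The abundant genes held both directions. *Hmgb2* encodes a chromatin protein that bends DNA and is also found in non-dividing myeloid cells, *Stmn1* a protein that destabilizes microtubules, and *Tuba1b* an α-tubulin. *Hmgb2* had 258.0, 293.3 and 263.2 CPM in Ctrl and 615.8, 662.9 and 589.9 CPM in LIP libraries. Its mean was 2.29-fold higher, without overlap (log2 fold change 1.20 ± 0.10, adjusted p = 3.51e-06), and with reads scaled on mature neutrophil genes it was lower by the same test (-0.62, adjusted p = 0.000131, where the median of all genes was -1.905). *Hmgb1*, its paralog, fell (-0.64 ± 0.14, adjusted p = 0.0031).

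*Stmn1* had 25.3, 32.5 and 23.9 CPM in Ctrl and 14.2, 12.5 and 13.2 CPM in LIP libraries (-1.03 ± 0.21, adjusted p = 0.00179). *Tuba1b* had 128.9, 148.9 and 136.1 CPM in Ctrl and 72.9, 77.5 and 85.5 CPM in LIP libraries (-0.81 ± 0.12, adjusted p = 0.000244). Of its near-identical copies, *Tuba1a* was at 158.8 ± 19.1 and 153.3 ± 8.65 CPM (adjusted p = 0.740, and lower with library totals, at 0.0208), and *Tuba1c* was higher in the main test (0.51 ± 0.10, adjusted p = 0.00214) and at 0.19 (adjusted p = 0.137) with library totals and -1.31 with scaling on neutrophil genes. Reads shared by such copies could be split differently by another counting rule.

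The rarest transcripts were often without any read in LIP libraries. Of the 44 genes, 1, 0 and 1 had no read in the Ctrl libraries and 11, 1 and 9 had none in the LIP libraries. The second LIP library stood apart from the other LIP libraries in this. Without it 13 genes were lower and 1 was higher, with *Mcm4* lost (adjusted p = 0.124) and *Cdc20* gained. Over the 23 genes with a mean FPKM from 0.1 to 1, 0, 0 and 1 had no read in Ctrl and 8, 1 and 8 in LIP libraries. Of all 7173 genes in the same range, 11.5 to 15.2% had no read in Ctrl libraries and 20.4 to 29.8% in LIP libraries, so rare genes in general were missed more often there. Altogether 15 of the 44 genes had no read in at least 1 LIP library and 2 in at least 1 Ctrl library. The spread was wide at these levels: the median coefficient of variation of genes below a mean FPKM of 1 was 43.97% in Ctrl and 87.3% in LIP libraries, against 12.96% and 28.2% in the genes tested.

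**Figure D3:**
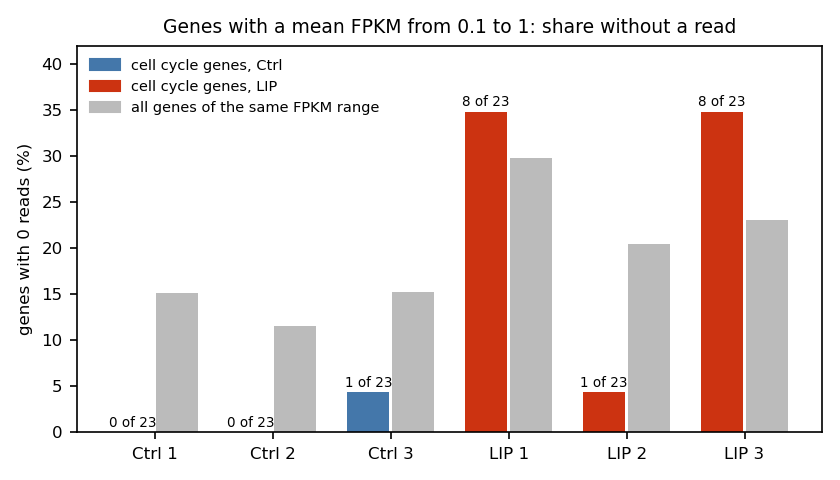
Share of genes without a read in each library, among genes with a mean FPKM from 0.1 to 1. Coloured bars show the 23 cell cycle genes in this range (blue, Ctrl; red, LIP; counts above the bars), and grey bars all 7173 genes in this range. The first and the third LIP library each lacked 8 of the 23, and the second LIP library lacked 1.

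The rest of the cell cycle machinery was read from 5 further lists. Together they held 77 tested genes, of which 26 were lower and 20 were higher in LIP libraries (17 higher and 38 lower with library totals, 0 and 74 with scaling on neutrophil genes), with a median log2 fold change of -0.40. Over all genes tested, 27.2% were lower and 26.5% were higher, and the counts of the 77 genes lay near these shares. Under the last of these scalings every one of the 77 genes had a negative log2 fold change, those named here as higher included. The other S-phase genes fell or were not called: 11 of 23 were lower and 0 were higher. *Dbf4*, which activates the CDC7 kinase at origins, went from 17.8 ± 0.577 to 4.01 ± 0.910 CPM (log2 fold change -2.15 ± 0.28, adjusted p = 9.91e-05), and *Rfc4*, a subunit of the clamp loader, from 5.73 ± 1.37 to 1.34 ± 1.02 (-2.09 ± 0.58, adjusted p = 0.0112).

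Of 20 tested other mitotic genes, 7 were higher and 6 were lower, near the shares of all genes (26.5% and 27.2%). *Kif23*, the kinesin of the central spindle, went from 35.1 ± 2.10 to 99.6 ± 14.3 CPM (1.51 ± 0.14, adjusted p = 1.12e-05). *Cks2*, a small partner of cyclin-dependent kinases, went from 75.5 ± 6.11 to 172.0 ± 4.27 (1.19 ± 0.11, adjusted p = 1.10e-05). The lowest called were *Anp32e*, a chaperone that removes H2A.Z (-1.59 ± 0.17, adjusted p = 2.56e-05), and *Smc2*, a core subunit of condensin (-1.55 ± 0.38, adjusted p = 0.00626).

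Cell cycle inhibitors and pocket proteins had the most genes higher of the 5 lists, 10 of 20, with 4 lower and a median of 0.50. The shares of all genes tested were 26.5% higher and 27.2% lower. *Gadd45b*, a stress-induced growth arrest gene, went from 344.6 ± 34.8 to 1136 ± 25.2 CPM (1.72 ± 0.10, adjusted p = 3.57e-07). *Cdkn2d*, the p19 inhibitor of CDK4 and CDK6, went from 109.6 ± 17.1 to 346.5 ± 3.49 (1.66 ± 0.12, adjusted p = 2.21e-06). The lowest were *Pkmyt1*, the kinase that holds CDK1 inactive (-2.73 ± 0.31, adjusted p = 3.89e-05), and *Btg3*, an antiproliferative adaptor (-1.14 ± 0.23, adjusted p = 0.00199). With scaling on neutrophil genes 0 of the list were higher and 18 were lower.

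Of 5 tested D-type cyclins and partner kinases, *Ccnd3* rose (410.2 ± 32.0 to 905.4 ± 38.6 CPM, log2 fold change 1.14 ± 0.09, adjusted p = 3.35e-06), while *Cdk4* (-1.39 ± 0.37, adjusted p = 0.00903) and *Ccnd2* (-0.49 ± 0.14, adjusted p = 0.0152) fell. In the list of DREAM and E2F genes 2 of 9 were higher and 3 were lower, again near the shares of all genes. *Tfdp1* and *E2f2* rose by 0.89 ± 0.16 and 0.69 ± 0.14 on the log2 scale (adjusted p = 0.00106 and 0.0017). *E2f5* and *Tfdp2*, a repressor E2F and an E2F partner, were the lowest, at -2.73 ± 0.40 and -2.40 ± 0.19 (adjusted p = 0.000258 and 3.60e-06).

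**Figure D4:**
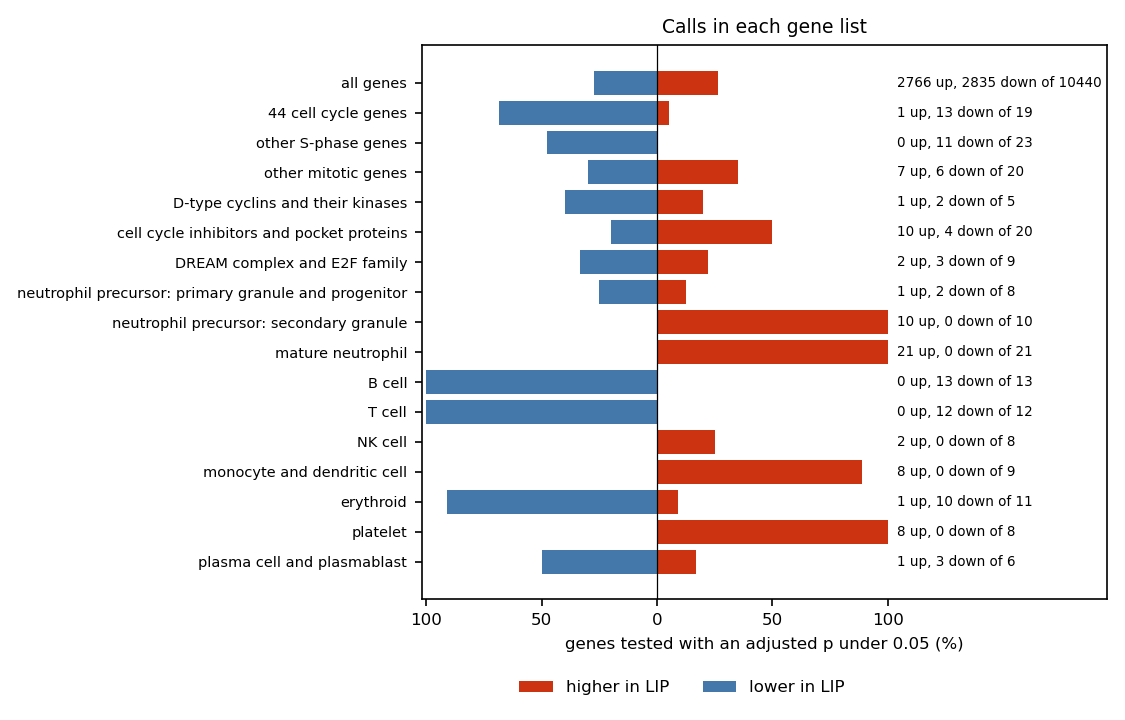
Share of the tested genes of each list that were called higher (red, to the right) or lower (blue, to the left) in LIP libraries by edgeR at an adjusted p under 0.05, with the counts at the right (n = 3 libraries per group). In the 44 cell cycle genes 13 of 19 tested were lower and in the other S-phase genes 11 of 23, while all 21 mature neutrophil genes were higher and all 13 B cell and 12 T cell markers tested were lower. With reads scaled on mature neutrophil genes, no cell cycle gene was higher.

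Markers of neutrophil precursors were set beside these genes. Of 8 tested genes of primary granules and progenitors, 1 was higher, 2 were lower and 5 were not called, against 26.5% higher and 27.2% lower of all genes, and the 15 listed genes summed to 334.4 to 386.5 FPKM in Ctrl and 243.6 to 278.3 in LIP libraries. The most abundant of the 15 were *Nkg7* and *Calr*, so this sum is not made of primary granule and progenitor transcripts alone. *Sox4*, a factor of progenitors, fell (28.8 ± 4.61 to 6.89 ± 2.29 CPM, adjusted p = 0.000127), and *Calr*, a chaperone of the endoplasmic reticulum, fell (135.1 ± 11.4 to 99.3 ± 7.85, adjusted p = 0.00964). The gene that was higher was *Cd63*, a tetraspanin of granule membranes (43.4 ± 4.16 to 98.1 ± 8.51 CPM, log2 fold change 1.18 ± 0.13, adjusted p = 3.65e-05). Under filterByExpr 2 of 13 tested genes of this list were higher and 2 were lower. With library totals 1 of the 8 was higher and 3 were lower. With scaling on neutrophil genes 0 were higher and all 8 were lower, *Cd63* included. *Elane*, the neutrophil elastase made in promyelocytes, was at 1.84 ± 0.760 and 0.725 ± 0.667 CPM (adjusted p = 0.262), and *Nkg7* at 237.0 ± 22.0 and 213.9 ± 11.0 (adjusted p = 0.265). Secondary granules are made later, at the myelocyte stage. The list for them also holds *Ltb4r1*, a leukotriene receptor, and *Cybb*, an oxidase subunit, so it is not made of granule proteins of that stage alone. All 10 genes of this list were higher (9 of 10 under filterByExpr), among them *Ngp* (1424 ± 165.0 to 2492 ± 85.3 CPM) and *Hp* (834.2 ± 103.0 to 3351 ± 187.6 CPM). Their summed FPKM ran from 2540 to 2984 in Ctrl and from 4867 to 5216 in LIP libraries. With library totals 7 of these 10 were higher, and with scaling on neutrophil genes 1 was higher and 6 were lower.

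Markers of other blood cells also differed between the groups, and the most abundant genes of each list are named. Their counts stand against 27.2% lower and 26.5% higher of all genes tested. All 13 B cell markers tested were lower (log2 fold changes from -2.89 to -2.15, with *Ighm* at -2.15 and *Cd79a* at -2.63), and all 12 T cell markers (from -3.38 to -1.32, with *Lck* at -1.32 and *Trac* at -2.36), whose list summed to 317.7 to 343.2 FPKM in Ctrl and 52.8 to 67.3 in LIP libraries. Of 11 erythroid markers, 10 were lower, with *Hba-a1* and *Hba-a2* at -2.80 and -2.89, and summed FPKM ran from 180800 to 187000 in Ctrl and from 19510 to 20220 in LIP libraries. Among markers of nucleated erythroid precursors, the transferrin receptor gene *Tfrc* was lower (-2.27) and *Gata1* was higher (1.71; no gene of this list was higher with scaling on neutrophil genes), with summed FPKM of 8.39 to 11.0 in Ctrl and 4.66 to 8.94 in LIP libraries. In the other direction, all 8 platelet markers were higher (*Ppbp* 1.23, *Pf4* 1.21), as were 8 of 9 of monocytes and dendritic cells (*Nr4a1* 0.57, *Ly6c2* 0.79). Of 8 NK cell markers, 2 were higher, near the share of all genes, and 6 were not called, *Gzma* (0.20) and *Prf1* (0.17) among them. The higher calls of these platelet, monocyte and dendritic cell, and NK cell markers depended on the scaling: with library totals 8, 6 and 0 were higher, and with scaling on neutrophil genes none was higher and 7, 6 and 8 were lower. Their summed FPKM ran from 788.2 to 1038 in Ctrl and from 1675 to 1958 in LIP libraries for platelets, from 371.3 to 448.8 and from 557.2 to 572.6 for monocytes and dendritic cells, and from 271.9 to 324.4 and from 269.7 to 300.1 for NK cells.

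Plasma cell markers were split, with 3 of 6 lower and 1 higher (*Mzb1* -2.20, *Xbp1* 1.33; 0 higher with scaling on neutrophil genes), at 115.0 to 128.7 FPKM in Ctrl and 114.1 to 126.3 in LIP libraries. No defining marker of any of these lists was at 0 in all libraries. Leaving haemoglobin reads out before normalization gave the same counts of cell cycle genes, 13 lower and 1 higher. The part of these other cells' RNA in the cell cycle genes' values was not tested.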

How the data were processed

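PB neutrophils of Ctrl and LIP mice were profiled by Smart-seq2, 3 libraries per group, each a pool of 5 mice. The groups were taken from the sample labels, which call LIP by its ligature. The authors deposited 2 kinds of values for every gene, the read counts as counted (not normalized) and FPKM, in which counts are scaled to gene length and library total. The submitters' processing notes name FastQC, cutadapt 1.9 and GRCm38. The aligner, the counting tool and the use of strand are not given in the sources used here. The deposited table lists 29097 genes. A name on several rows (50 names) was read from the row with the higher mean FPKM. All sample columns of the table belonged to these 6 libraries.

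Counts were tested with edgeR 4.0.16 (R 4.3.3), by the quasi-likelihood test with TMM factors and the group as the only term, over 10440 genes (mean FPKM over the 6 libraries 1 or more). Adjustment followed Benjamini and Hochberg over all of these, and a gene was called at an adjusted p under 0.05. The standard error of a log2 fold change was its size over the square root of F. CPM are counts scaled to library size after TMM. The scripts were tested on simulated data. The alternatives were other scalings and filters, DESeq2 1.42.0, limma 3.58.1 on log2(FPKM + 1) and log2(FPKM + 0.1), a replicate block, haemoglobin genes left out, and each library left out in turn.

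The cell cycle genes and all gene lists were chosen with earlier results of these data known. Values in every library are given for the tested genes with the largest and smallest change in each role group, for the most and least abundant gene and for *Mki67*, *Top2a*, *Cdk1*, *Ccnb1*, *Pcna* and *Mcm2* to *Mcm7*. In each further list the 2 highest and 2 lowest called genes are named, and in each cell type list the 2 most abundant. *Ube2c*, *Ccne1*, *Stmn1*, *Tpx2*, *Kif11*, *Sox4*, *Cd63*, *Elane* and the paralogs were named after their values were seen. A floor of 3 reads per library was used where a group had no read. Within a group, pairs of libraries had a chi-square of 51.9 to 126 per gene, far above sampling noise, and all 6 were kept as separate libraries. The common biological coefficient of variation was 0.265. RefSeq promoters and GENCODE M21 were of the same build as the table. *Mcm4*, *Gins2*, *Foxm1*, *Ccne2*, *Ccna2*, *Aurkb*, *Kif20a*, *Tpx2* and *Stmn1* had no promoter entry here.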

Additional observations from a re-analysis of the deposited data

How the results depend on the processing

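The 13 lower and 1 higher cell cycle genes of the main test became 11 to 13 lower and 1 higher when a library was left out, and 12 to 15 lower and 1 higher under the other scalings, filters and tools, except as follows. With a mean FPKM of at least 5, 7 of the genes were tested and 6 were lower, all genes gave 1768 higher and 1869 lower, and the 5 further lists gave 16 lower, because fewer genes entered the test. Scaling on mature neutrophil genes, which moves every gene down, gave 0 cell cycle genes higher and 18 lower, 63 and 9240 of all genes, and 0 and 74 genes of the further lists, and turned *Hmgb2* to -0.62 and *E2f1* to -1.13. Of single genes, the direction turned only in genes that were not called in the main test, apart from *Hmgb2*: when a library was left out, *E2f1* ran from -0.066 (without the first LIP library) to 1.06, *Ccnb2* from -1.20 to 0.50 (above 0 without the second Ctrl, the second LIP or the third LIP library) and *Aurka* from -0.66 to 0.17 (above 0 without the first Ctrl, the second Ctrl, the second LIP or the third LIP library). The LIP minus Ctrl difference in the share of the 41 genes was -2.85 per 10000 reads, -2.98 to -2.72 when a library was left out, and -3.65 when haemoglobin reads were left out of the total. Of 311 values of single genes under the alternatives, 281 kept their direction and side of the threshold. No bound on rare genes is firmer than the floor of 3 reads.

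Ctrl and LIP libraries share numbers only in their labels. Deviations from the group means correlated between same-numbered libraries at 0.0129, 0.0525 and 0.0307, so the numbers were not taken to pair the libraries. Each LIP library correlated best with the Ctrl library of its own number, but the first Ctrl library correlated best with the third LIP library (0.0235). With the replicate block 14 cell cycle genes were lower and 1 was higher, the added gene being *Cdc20* (log2 fold change -5.05, adjusted p = 0.0164), with 30 lower and 20 higher in the further lists.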

Other observations

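The deposited Gene Ontology annotations allowed a wider look at genes that divide and copy DNA, chosen after the values above were known. Of 84 tested genes annotated to DNA replication, 36 were lower and 8 were higher in LIP libraries, with a median log2 fold change of -0.59, and of the 61 of them on none of the lists above, 21 were lower and 8 were higher (-0.45). Of 251 tested genes of DNA repair, 88 were lower and 24 were higher (-0.46). Cell division, with 226 tested genes, went both ways, with 61 lower and 57 higher (-0.15), as did the mitotic cell cycle, with 19 lower and 17 higher of 74. Over all 10440 genes tested, 27.2% were lower and 26.5% were higher. These directions depend on the scaling. With reads scaled on mature neutrophil genes, 63 of all genes were higher and 9240 were lower, with a median of -1.905. The terms, and the genes named below, were not read under that scaling.

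Of the genes of these terms outside the lists, *Hepacam2*, an adhesion-type protein of the immunoglobulin superfamily, went from 13.7 ± 1.601 to 1.30 ± 1.46 CPM (SD, n = 3; edgeR log2 fold change -3.39 ± 0.69, adjusted p = 0.00203), and *Ruvbl1*, an ATPase of chromatin remodelling complexes, from 25.99 ± 3.65 to 7.48 ± 0.831 (-1.80 ± 0.23, adjusted p = 8.24e-05). *Haus7*, a subunit of the augmin complex, was lower (-2.20 ± 0.43, adjusted p = 0.0015), as was *Top1mt*, the mitochondrial topoisomerase (-1.99 ± 0.47, adjusted p = 0.00509). *Hepacam2*, *Haus7* and *Top1mt* passed the FPKM filter through the Ctrl libraries, with LIP means of 0.181, 0.8005 and 0.359. Under filterByExpr their adjusted p values were 0.00957, 0.00619 and 0.0270. In the other direction, *Sycp2*, a component of the synaptonemal complex of meiosis, went from 7.02 ± 1.36 to 61.1 ± 10.5 CPM (3.12 ± 0.22, adjusted p = 1.41e-06), and *Nek6*, a mitotic kinase, from 13.5 ± 2.87 to 54.9 ± 2.82 (2.02 ± 0.19, adjusted p = 1.2e-05). *Ccno*, an atypical cyclin, and *Anxa11*, an annexin of the midbody, were higher by 1.79 ± 0.24 and 1.72 ± 0.20 in the main test (adjusted p = 0.000114 and 4.31e-05). All genes named here were picked as the lowest and the highest called genes of DNA replication or cell division outside the lists.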
